A study of Mus musculus with 9 samples.

Results

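The livers of 3 mice injected with thioacetamide (TAA) for 8 weeks were compared with those of 3 control mice injected with normal saline for the same time, which uses 6 of the 9 libraries of the series. The rule took every gene that averaged 0.1 FPKM or more over the 9 libraries (fragments per kilobase of transcript, scaled to library size), which left 14094 of the 21873 genes in the deposited mRNA table. Both groups were male C57BL/6 mice, 8 weeks old at the start, with no engineered allele; the TAA group received TAA intraperitoneally every few days, the control group received the same volume of saline on that schedule, and both were killed a few days after the last injection. The remaining 3 libraries came from mice left to recover for another 8 weeks after the same TAA course, and they entered only the filter on low values and the scaling. The labels number the libraries of a group as replicates without naming the animals, so the p-values measure the spread between these 3 libraries on each side.

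Thioacetamide is not itself the toxin: hepatocytes oxidise it, mainly through Cyp2e1 and flavin monooxygenases, to reactive products that bind protein and kill the cells around the central vein, where these enzymes are concentrated. Repeated dosing makes injury, regrowth and scarring run side by side, so that a liver built mostly of hepatocytes gains bile duct-like cells, matrix-producing stellate cells and leukocytes. Hepatocytes in turn divide their work along the lobule, with urea and glucose synthesis near the portal vein and glutamine synthesis and drug oxidation near the central vein, and in males a pulsatile growth hormone signal adds a further set of genes.

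All levels below are scaled FPKM: the deposited FPKM of each library divided by 1 factor, the median ratio to the other libraries over genes detected in all of them. This step mattered because the factors were 0.827 to 0.878 in the control libraries and 1.29 to 1.38 in the TAA libraries, so that scaling lowered TAA against control by 0.64 on the log2 scale. The low values stepped as whole fragments in 45.2% to 59.1% of cases within 0.05 of a fragment, where chance gives 10%, and the step put the depth at 26.8 to 35.4 M fragments (M, 1e6) in the control libraries and 38.6 to 40.7 M in the TAA libraries. Genes above 0 numbered 14923 to 15160 in the control libraries and 16314 to 16562 in the TAA libraries. Alb, which encodes the main plasma protein of hepatocytes, was the highest gene in all 6 libraries, and Pnlip, a defining marker of exocrine pancreas, was listed at 0 in all of them. TAA library 3 stood apart by skeletal muscle genes, whose 10 markers summed to 0.489, 0.254 and 47.1 in the TAA libraries and 0.1604, 0.426 and 0.371 in the control libraries. Acta1, the actin of skeletal muscle, was listed at 0.0655, 0.0677 and 19.8 in the TAA libraries and at 0 in all 3 control libraries. By limma 0 of the 10 muscle markers were called, with 0 at an unadjusted p under 0.05, and their part in other genes was not tested; counts without that library are given beside the totals.

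Extensive change separated the groups, and the direction depended on how strongly a gene was expressed. A gene was called when limma's adjusted p was under 0.05 and its fold change was at least 2 on the log2(scaled FPKM + 0.1) scale, the scale of every fold change below. By that rule 2389 genes were higher in the TAA group, 17.0% of those tested, and 1131 were lower, 8.02%, so 25.0% were called and 67.9% of the calls were higher. Without TAA library 3 the counts were 2252 and 1160. The balance rested on the scaling and on low genes: the share of calls that were higher was 91.2% with FPKM as deposited, 76.7% with upper quartile scaling, 55.7% with quantile normalization, 50% with a pseudocount of 1 and 53.4% when testing was limited to genes averaging 1 FPKM or more. The median log2 fold change of all tested genes was 0.02, and it was 0.63 with FPKM as deposited, 0.20 with upper quartile scaling and -0.04 with quantile normalization. Among the 2991 tested genes with a mean below 1 scaled FPKM, 1190 were higher and 103 lower. Among the 476 genes at 100 or above, 13 were higher and 223, or 46.8%, were lower. The 100 highest genes held 46.9% to 49.5% of all FPKM in the control libraries and 34.6% to 37.4% in the TAA libraries, ranges that did not overlap. The major urinary protein genes alone held 9.35% to 11.8% of all FPKM in the control libraries and 0.768% to 1.01% in the TAA libraries.

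**Figure D1:**
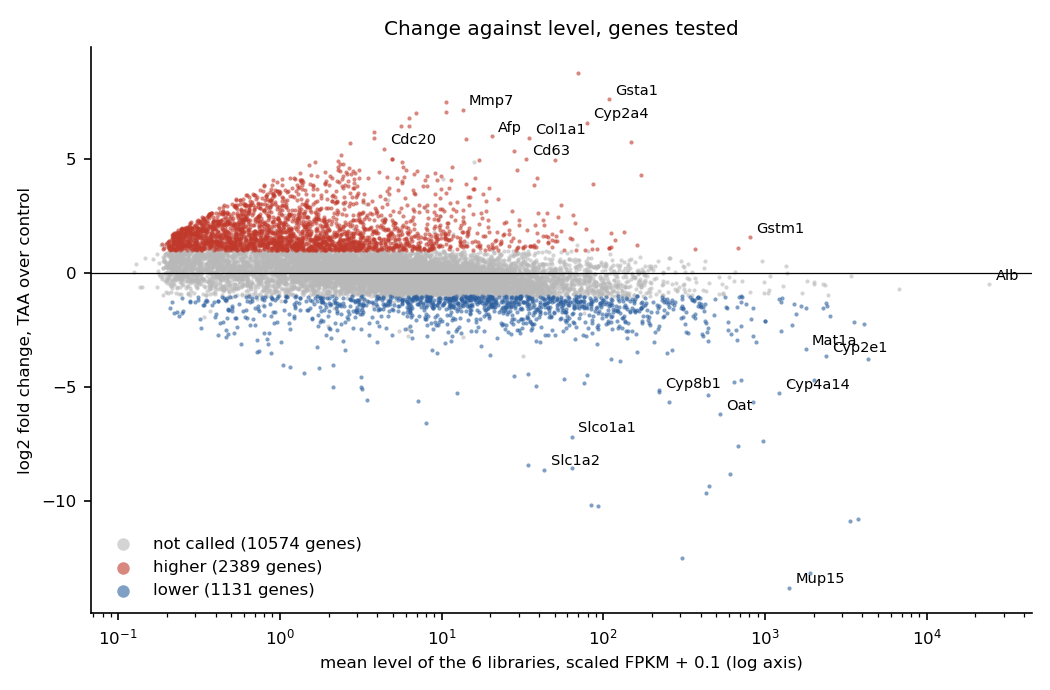
Mean level of the 6 libraries (scaled FPKM + 0.1, log axis) against log2 fold change of TAA over control for the 14094 tested genes, with called genes in red (2389 higher) and blue (1131 lower). Calls on the left, among low genes, lie mostly above 0, and among the 476 genes at 100 scaled FPKM or more 223 lie in blue.

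The largest movements at either end had recognisable owners. The 15 greatest falls were 13 major urinary protein genes, Slc1a2 and Elovl3, and the 15 greatest rises held glutathione transferases of the alpha class (Gsta1, Gm3776 and Gm10639), cytochromes of the Cyp3a and Cyp2a subfamilies (Cyp3a41a, Cyp3a41b, Cyp3a16 and Cyp2a4), Cyp1a1, the aldo-keto reductase Akr1c18, the matrix protease Mmp7, the cystine carrier Slc7a11, the fetal albumin Afp, the tight junction protein Cldn4, the collagen chain Col1a1 and the cornified envelope protein Sprr1a. Gsta1, Gsta2, Gm3776 and Gm10639 lie together at chr9:78230656-78355788 (GRCm38), and near-identical neighbours of this kind can share reads, so the split between them is uncertain. A change of 16-fold or more was reached by 83 of the genes called higher and 45 of those called lower. Of the genes called higher, 36 were listed at 0 in all 3 control libraries, and of those called lower, 4 were listed at 0 in all 3 TAA libraries.

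**Figure D2:**
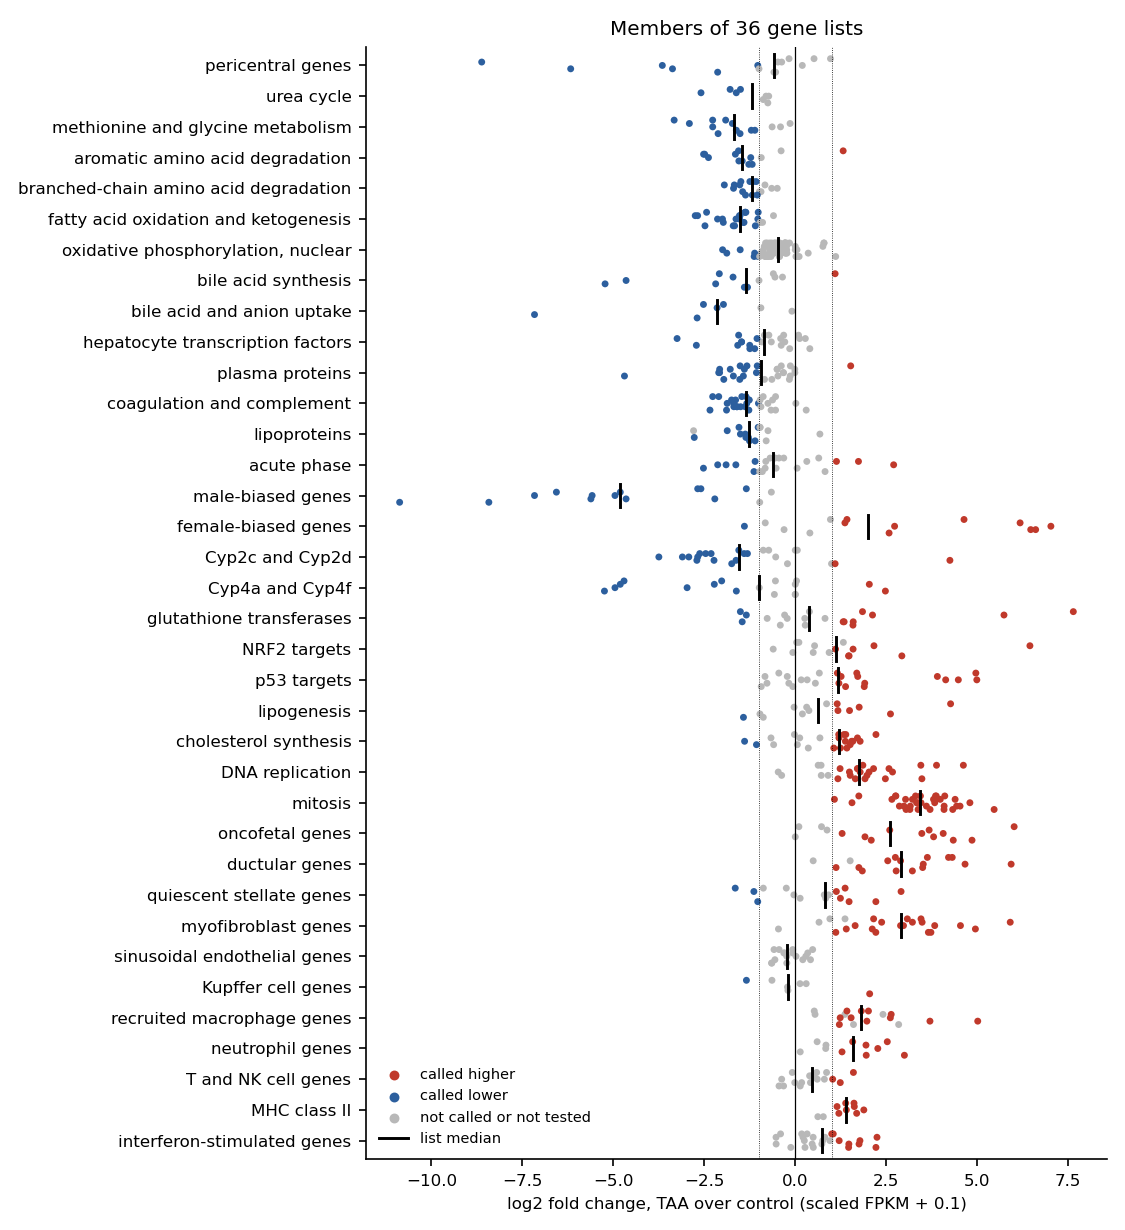
Log2 fold change of TAA over control for every member of 36 gene lists, one point per gene, in red or blue where called and grey where not called or not tested, with black bars at the list medians and dotted lines at a 2-fold change. By this scaling most members of the amino acid and fatty acid oxidation lists lie left of 0 and most of the mitosis, ductular and myofibroblast lists right of it; all 17 sinusoidal endothelial markers stay grey.

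The genes of the hepatocytes around the central vein held some of the deepest losses, in part of their members. Slc1a2, a glutamate carrier of the innermost hepatocyte rows, measured 95.4, 88.4 and 74.3 in the control libraries and 0.0481, 0.105 and 0.243 in the TAA libraries. Oat, ornithine aminotransferase, measured 1129, 1178 and 808 in the control libraries and 10.04, 18.4 and 15.2 in the TAA libraries. Glul, glutamine synthetase, measured 484, 514 and 456 in the control libraries and 50.3, 40.9 and 49.2 in the TAA libraries. In all 3 the groups lay far apart, with log2 fold changes of -8.62 ± 0.29, -6.17 ± 0.24 and -3.37 ± 0.11 (SE), and adjusted p = 2.2e-06, 3.6e-06 and 2e-06. Of the 15 pericentral genes listed, all tested, 6 were called lower and none higher. Axin2, a feedback inhibitor and target of Wnt signalling, had a log2 fold change of 0.52, adjusted p = 0.00718, and the median of the list was -0.59 by the scaling used but 0.04 with FPKM as deposited. Lect2, another gene of this zone, had 0.97, adjusted p = 0.00092. Cyp1a2, a drug-oxidising cytochrome of the zone, measured 222, 211 and 178 in the control libraries and 141, 161 and 168 in the TAA libraries and was not called. In a bulk sample, fewer cells of a type and less RNA in each cell cannot be told apart, here and in everything that follows.

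Part of the periportal work fell as well. Among the 8 genes of the urea cycle 4 were called lower, and all 8 had TAA libraries below every control library, an ordering seen in 31.0% of all tested genes; groups that did not overlap in either direction made up 63.6%. Asl, which splits argininosuccinate, fell the most, with 521, 605 and 548 in the control libraries and 109.9, 74.9 and 95.8 in the TAA libraries (log2 fold change -2.59 ± 0.15 (SE), adjusted p = 1.5e-05). Otc, which makes citrulline, and Arg1, which releases urea, had log2 fold changes of -1.79, adjusted p = 4.9e-05, and -1.51, adjusted p = 0.00014. Cps1, which admits ammonia to the cycle, and Ass1 had -0.88 ± 0.15 and -0.73 ± 0.13 (SE) and did not reach the 2-fold limit. The median of the cycle was -1.19 (-1.19 to -0.24 over the 4 scalings). Outside the cycle 5 of 8 periportal genes fell (3 with FPKM as deposited and 3 with quantile normalization), led by Pck1, the gatekeeper of gluconeogenesis, from 2158 ± 213 to 372 ± 13.1 (mean ± SD, n = 3 each; log2 fold change -2.53, adjusted p = 7.3e-06). Cyp2f2, a cytochrome of portal hepatocytes, measured 385, 343 and 336 in the control libraries and 291, 303 and 310.2 in the TAA libraries and was not called (-0.23, and 1.03 in the opposite direction with quantile normalization).

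Amino acid breakdown fell across its pathways. In methionine and glycine metabolism 11 of 14 genes were called lower (7 with FPKM as deposited and 5 with quantile normalization), with a median log2 fold change of -1.67 (-1.67 to -0.85 over the 4 scalings). Mat1a, the adult liver enzyme that makes S-adenosylmethionine, measured 2948, 3635 and 3159.9 in the control libraries and 390.1, 276 and 311 in the TAA libraries (log2 fold change -3.33 ± 0.16 (SE), adjusted p = 8.2e-06). Ahcy, which clears the S-adenosylhomocysteine left after methylation, measured 1167, 1182 and 1194 in the control libraries and 172, 141 and 160.2 in the TAA libraries. For both genes the TAA libraries lay far below the lowest control library. Mat2a, the isozyme of other tissues and of dividing hepatocytes, had 21.95 ± 1.997 in the control group and 19.9 ± 2.098 in the TAA group (adjusted p = 0.31). Bhmt, which returns homocysteine to methionine, had a log2 fold change of -2.27, adjusted p = 4.9e-05.

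For the aromatic amino acids 10 of 13 genes fell, or 4 with FPKM as deposited and 4 with quantile normalization. Hpd, the second enzyme of tyrosine breakdown, went from 1122 ± 47.3 to 201 ± 25.2, and Tdo2, the first of tryptophan breakdown, from 745 ± 91.9 to 143 ± 22.8, with log2 fold changes of -2.49, adjusted p = 7.4e-06, and -2.39, adjusted p = 2e-05. Acmsd, which steers tryptophan away from NAD synthesis, was the exception and rose, with 6.03, 6.78 and 9.63 in the control libraries and 16.8, 24.6 and 15.02 in the TAA libraries (log2 fold change 1.32 ± 0.23 (SE), adjusted p = 0.00214). Its groups did not overlap, against the direction of the 10 lower members. Among branched-chain genes 12 of 17 fell, or 3 with FPKM as deposited and 6 with quantile normalization. In all 17 the TAA libraries lay below the control libraries, an ordering seen in 31.0% of all tested genes. Aldh6a1, which finishes valine breakdown, had a log2 fold change of -1.70, adjusted p = 3.9e-05. Acadsb, an early step for isoleucine, was called at -1.07, adjusted p = 0.022, but its control library 1 (44.6, 20.1 and 19.99 in the 3) carried it: without that library the value was -0.69, and the call was also lost without TAA library 1 (-0.93) and without TAA library 3 (adjusted p = 0.065).

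**Figure D3:**
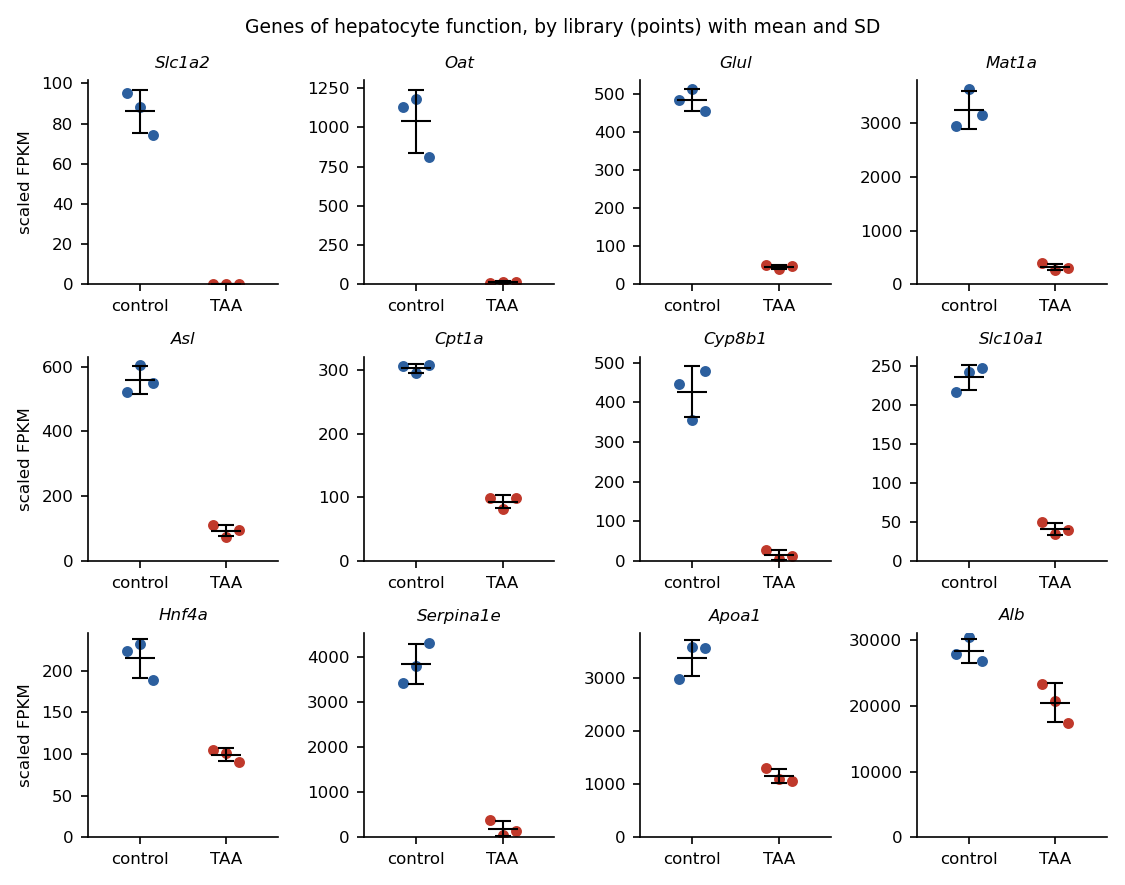
Scaled FPKM (linear axes from 0) of 12 genes of hepatocyte function in the 3 control (blue) and 3 TAA (red) libraries, with mean and SD in black. Slc1a2, Oat and Cyp8b1 lie near 0 in the TAA group, Hnf4a keeps a level near 100, and Alb, which was not called, shows the smallest relative gap.

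Genes of fat oxidation fell, and part of those of fat synthesis rose. Of 24 genes of fatty acid oxidation and ketogenesis 21 fell and none rose (9 with FPKM as deposited and 6 with quantile normalization fell), with a median of -1.52 (-1.52 to -0.84 over the 4 scalings). All 24 were lower in every TAA library, an ordering seen in 31.0% of all tested genes. Cpt1a, which admits fatty acids to mitochondria, measured 306, 295 and 308 in the control libraries and 99.03, 81.4 and 99.1 in the TAA libraries (log2 fold change -1.71 ± 0.10 (SE), adjusted p = 1.8e-05); under quantile normalization it stayed below 0 but inside the 2-fold limit (-0.87). The microsomal omega-hydroxylases fell further. Cyp4a14 measured 1991, 2879.9 and 2232 in the control libraries and 45.2, 104 and 49.9 in the TAA libraries, and Cyp4a10 had a log2 fold change of -4.71, adjusted p = 3.6e-06; 8 of the 13 tested Cyp4a and Cyp4f genes fell, of 17 listed, and Cyp4f16 and Cyp4f18 rose (2.03 and 2.48).

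Nuclear genes of the respiratory chain were called lower at about the rate of all tested genes, 7.89% against 8.02%. Of 80 nuclear-encoded subunit genes, 76 of them tested, 6 were called lower, led by Cox6c (-1.997, adjusted p = 0.00017) and Ndufs7 (-1.88, adjusted p = 6.9e-05). Smaller falls were wider: 60 were lower in every TAA library, an ordering seen in 31.0% of all tested genes. By limma 63 had an unadjusted p under 0.05. The list median was -0.48, or 0.13 with FPKM as deposited. None of the 13 subunits on mitochondrial DNA was called by limma, with 12 at an unadjusted p under 0.05 and 9 lower in every TAA library; mt-Co3, listed at 1.79, 3357 and 3518 in the control libraries and 1516, 0.787 and 0.788 in the TAA libraries, cannot be read as a level, since it is at one level in some libraries of a group and near the floor in others.

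Lipogenic genes rose as a smaller and mixed set. Pnpla3, a lipid droplet hydrolase, measured 0.0832, 0.0768 and 0.132 in the control libraries and 4.52, 4.23 and 2.59 in the TAA libraries (log2 fold change 4.27 ± 0.25 (SE), adjusted p = 1.6e-05). Thrsp, a regulator of lipogenesis, rose from 12.5 ± 2.36 to 77.5 ± 16.8, and Fasn, fatty acid synthase, from 17.4 ± 3.04 to 59.9 ± 17.5. In each of these the TAA libraries lay clear above the control libraries. In all 6 of 14 listed genes rose and Elovl5, an elongase of polyunsaturated fatty acids, fell (-1.42, adjusted p = 9.9e-05). Scd1, the most abundant member, measured 1444, 1554 and 697 in the control libraries and 1879, 1431 and 1116 in the TAA libraries with overlapping groups. Cholesterol synthesis rose more broadly, with 14 of 23 genes higher and a median of 1.20 (1.20 to 1.84 over the 4 scalings). Fdps, which makes farnesyl pyrophosphate, measured 25.7, 21.4 and 22.6 in the control libraries and 136, 109.9 and 84.1 in the TAA libraries (log2 fold change 2.22 ± 0.17 (SE), adjusted p = 4.9e-05), and Hmgcs1, an early enzyme of the pathway, had 1.78, adjusted p = 0.0004. Tm7sf2 and Hsd17b7, enzymes of the later sterol steps, went the other way (-1.39 ± 0.13 and -1.07 ± 0.12, SE), the second by a margin lost without TAA library 3 (-0.95).

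Bile acid synthesis and uptake fell. Cyp8b1, the 12-alpha-hydroxylase that sets the share of cholic acid, measured 447, 356 and 479 in the control libraries and 28.2, 3.96 and 12.6 in the TAA libraries (log2 fold change -5.23 ± 0.61 (SE), adjusted p = 0.00031). Cyp7b1, of the alternative route, measured 108, 109 and 112 in the control libraries and 4.55, 3.31 and 5.16 in the TAA libraries. Cyp7a1, the rate-limiting enzyme of the classical route, measured 55.9, 13.3 and 44.03 in the control libraries and 30.8, 21.1 and 24.1 in the TAA libraries. The first pair separated completely, while the Cyp7a1 groups overlapped (-0.35, adjusted p = 0.57). In the list 7 of 12 genes fell (5 with FPKM as deposited and 3 with quantile normalization), and Cyp2c70, the mouse muricholic acid enzyme, rose (1.09, adjusted p = 0.00445), though by 0.90 without control library 1. Of the 7 uptake carriers 5 fell. Slc10a1, the sodium-bile acid cotransporter, went from 235 ± 15.9 to 41.3 ± 7.45, and Slco1a1, a male-biased anion carrier, from 127 ± 11.7 to 0.795 ± 0.175 (-2.52, adjusted p = 1.2e-05, and -7.17, adjusted p = 5.4e-07). Export pumps split: Abcc4 and Abcb1a, pumps that are scarce in healthy hepatocytes, rose (2.74, adjusted p = 0.00018, and 2.43, adjusted p = 0.00018), Abcb4, Abcg8 and Abcc3 fell (-1.21, -1.46 and -1.43; none of the list was called lower with FPKM as deposited), and Abcb11, the canalicular bile salt pump, measured 65.6, 47.3 and 48.8 in the control libraries and 66.3, 81.9 and 57.3 in the TAA libraries without a call.

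Glucose enzymes changed their makeup in places. Gys2 and Fbp1, the liver forms of glycogen synthase and of the gluconeogenic bisphosphatase, fell (-2.17, adjusted p = 2.9e-05, and -2.17, adjusted p = 2.6e-05). Of the isozymes that other cells use, 5 of 10 tested rose, among them Pkm, the pyruvate kinase of most tissues, from 8.89 ± 3.87 to 40.9 ± 7.16, and Pygb, the brain-type glycogen phosphorylase, from 1.804 ± 0.247 to 12.4 ± 3.18.

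Hepatocyte transcription factors fell in part. Hnf4a, the central regulator of hepatocyte identity, measured 223, 232 and 189 in the control libraries and 105, 101 and 90.2 in the TAA libraries (log2 fold change -1.11 ± 0.11 (SE), adjusted p = 0.00015). Cebpa measured 204, 195 and 189.9 in the control libraries and 74.1, 58.7 and 80.6 in the TAA libraries. Nr1i3, the xenobiotic receptor CAR, measured 76.5, 76.1 and 73.5 in the control libraries and 11.1, 10.4 and 12.8 in the TAA libraries. None of the 3 overlapped between groups, and Nr1i3 lost most (-2.72, adjusted p = 2.8e-06). The Hnf4a call did not survive upper quartile scaling (-0.93), FPKM as deposited (-0.48) or quantile normalization (-0.31). In all 10 of 23 were called lower (2 with FPKM as deposited and 4 with quantile normalization) and none higher, with a median of -0.85 (-0.85 to -0.22 over the 4 scalings).

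Secreted proteins were lost unevenly. Alb measured 27847, 30373 and 26759 in the control libraries and 23279.8, 20731 and 17378 in the TAA libraries. The TAA libraries were all lower, yet the difference did not pass the test (log2 fold change -0.48, adjusted p = 0.19), and as a share of all FPKM as deposited Alb took 6.41% in the control group and 8.18% in the TAA group. Trf, transferrin, had -0.13, adjusted p = 0.53 (1.24 with quantile normalization), while Fetub, a fetuin, fell from 283 ± 54.5 to 65.5 ± 9.24 (-2.10, adjusted p = 4.8e-05). Serpina1e, a member of the alpha-1-antitrypsin cluster, fell from 3847 ± 451 to 193 ± 167 (-4.69, adjusted p = 0.00037), with the reservation that its near-identical neighbours can share reads. Of 28 plasma proteins 14 were lower and A1bg, at under 1 scaled FPKM, was higher (1.52, adjusted p = 0.016), a call lost without TAA library 1 or 3. With FPKM as deposited 7 were lower and 1 higher, and with quantile normalization the balance reversed, with 3 lower and 8 higher. The median was -0.95 but 0.13, the opposite side of 0, with quantile normalization.

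Clotting and complement factors fell widely. Of 30, 20 fell (9 with FPKM as deposited and 9 with quantile normalization) and none rose, with a median of -1.34 (-1.34 to -0.44 over the 4 scalings). In 28 every TAA library was below every control library, an ordering seen in 31.0% of all tested genes. C8b, a subunit of the membrane attack complex, measured 106, 112 and 121 in the control libraries and 28.4, 17.6 and 21.7 in the TAA libraries (log2 fold change -2.34 ± 0.17 (SE), adjusted p = 3.4e-05). F9, clotting factor IX, measured 88.2, 87.1 and 90.4 in the control libraries and 31.5, 28.02 and 23.3 in the TAA libraries. Both groups were tight, with no overlap. C3, the most abundant complement protein, had a log2 fold change of -0.88, adjusted p = 0.0012 and stayed inside the 2-fold limit. Of 16 lipoprotein genes 10 fell (2 with FPKM as deposited and 1 with quantile normalization), Apoa1 and Apoa2, the main proteins of high-density lipoprotein, among them (-1.55, adjusted p = 0.00015, and -1.87, adjusted p = 3.7e-05), as did Apob (-1.26, adjusted p = 0.00075). The Apoa1 and Apoa2 values were -0.21 and -0.50 with quantile normalization, and Apob turned to 0.12.

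Acute phase proteins went both ways. Saa1, serum amyloid A, measured 55.1, 121 and 639 in the control libraries and 29.9, 23.5 and 31.5 in the TAA libraries. Control library 3 was far above the other controls, and the call (-2.52, adjusted p = 0.026) was lost whichever TAA library was left out (adjusted p = 0.062, 0.075 and 0.069 without TAA libraries 1, 2 and 3). Hp, haptoglobin, fell (-1.14, adjusted p = 0.00183; 0.32 with quantile normalization), and Lcn2, a siderophore-binding protein of stressed hepatocytes and neutrophils, rose, with 2.76, 4.91 and 20.4 in the control libraries and 29.1, 51.7 and 53.5 in the TAA libraries (log2 fold change 2.70 ± 0.66 (SE), adjusted p = 0.00998). In all 6 of 22 were lower (3 with FPKM as deposited and 2 with quantile normalization) and 3 higher. These were 27.3% and 13.6% of the list, where 8.02% of all tested genes were called lower and 17.0% higher.

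Male-biased genes fell and female-biased genes rose. Of 15 male-biased genes 13 fell and none rose, with a median of -4.81 (-4.81 to -4.18 over the 4 scalings), and of 14 female-biased genes, 12 of them tested, 9 rose and 1 fell. Elovl3, a male-biased fatty acid elongase, measured 55.3, 81.7 and 68.9 in the control libraries and 0.0924, 0.0986 and 0.104 in the TAA libraries (log2 fold change -8.42 ± 0.16 (SE), adjusted p = 3e-07). Cyp2a4, a female-biased steroid hydroxylase, measured 1.83, 1.77 and 1.04 in the control libraries and 144, 183 and 144 in the TAA libraries (log2 fold change 6.61 ± 0.21 (SE), adjusted p = 2e-06). Cyp2b9 and Cyp3a41a, also female-biased cytochromes, rose from 0.06499 ± 0.0614 and 0.00528 ± 0.00914 to 4.300 ± 2.79 and 13.6 ± 1.38. The gap between groups in these genes was wide, but Cyp2a4 shares most of its sequence with Cyp2a5 (424, 402 and 286 in the control libraries and 279, 348 and 286 in the TAA libraries) and the Cyp3a41 copies with Cyp3a16, so the division of reads within each family is uncertain. Cyp17a1, a steroid 17-alpha-hydroxylase placed in the female-biased list, fell instead (-1.40, adjusted p = 0.00819).

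All 20 tested Mup genes, of 22 listed, fell. They encode the pheromone carriers of male urine and lie at chr4:59958506-62150863; their copies are nearly identical, so single members are uncertain while the sum, 47394 ± 5827 to 2279 ± 365, is less so. The Y-linked genes Ddx3y, Uty, Kdm5d and Eif2s3y, read after the other values were seen, were present in all 6 libraries, and none was called. Eif2s3y, a translation factor subunit, measured 30.3, 23.7 and 23.1 in the control libraries and 15.02, 18.2 and 12.1 in the TAA libraries, and Ddx3y, an RNA helicase, 18.8, 24.6 and 23.4 in the control libraries and 12.4, 18.5 and 8.303 in the TAA libraries, both lower in every TAA library (-0.77, adjusted p = 0.0065, and -0.83, adjusted p = 0.033). Kdm5d, a histone demethylase, and Uty, a relative of that enzyme class, had log2 fold changes of -0.28, adjusted p = 0.1, and -0.14, adjusted p = 0.4. In the growth hormone axis Ghr, the receptor, measured 151, 136 and 119 in the control libraries and 51.5, 49.1 and 44.9 in the TAA libraries (log2 fold change -1.47 ± 0.11 (SE), adjusted p = 4.2e-05), and its target Igf1 went from 159 ± 12.3 to 59.9 ± 7.22 (-1.41, adjusted p = 5.6e-05). With Igfals and Igfbp2, 4 of 14 fell and none rose, and with FPKM as deposited 2 were called lower and 4 higher. By the reported scaling 4 members were higher in every TAA library, an ordering seen in 32.6% of all tested genes. They stayed inside the 2-fold limit, Igf1r, the receptor of IGF1, being nearest to it (0.98).

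Drug-metabolising families split by member. Of 20 tested Cyp2c and Cyp2d genes 14 fell, as Cyp2c37 did from 208 ± 23.4 to 15.4 ± 2.25, and Cyp2c55 rose from 0.696 ± 0.252 to 15.4 ± 6.92 (4.25, adjusted p = 5.7e-05). Cyp2b10, the marker target of CAR, rose from 0.194 ± 0.0517 to 5.32 ± 4.32 (3.94, adjusted p = 0.0004) while Nr1i3 itself fell. Cyp1a1, the marker target of the aryl hydrocarbon receptor, rose from 0.343 ± 0.0781 to 27.96 ± 13.1 (5.89, adjusted p = 1.3e-05). Cyp3a11, the most abundant Cyp3a, measured 2953, 1921 and 1993 in the control libraries and 1666, 2221 and 1314 in the TAA libraries with overlapping groups. Sult2a8, a bile acid sulfotransferase of male liver, fell from 503 ± 74.8 to 10.4 ± 4.11, and Sult1e1, oestrogen sulfotransferase, rose from 0.0791 ± 0.137 to 1.71 ± 0.656. Of the oxidases that activate thioacetamide, Cyp2e1 fell (-3.65, adjusted p = 3.6e-06), while Fmo5, a flavin monooxygenase, measured 199.7, 143 and 194 in the control libraries and 246, 277 and 242 in the TAA libraries and stayed inside the 2-fold limit.

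Part of the glutathione transferases, which attach glutathione to reactive compounds, rose. Gsta1 measured 3.55, 0.732 and 0.296 in the control libraries and 179, 276 and 193 in the TAA libraries (log2 fold change 7.64 ± 0.71 (SE), adjusted p = 0.0001). Gstm3, a mu class enzyme, measured 6.42, 7.43 and 2.92 in the control libraries and 212, 393 and 269 in the TAA libraries. Gstm1, the most abundant glutathione transferase of the TAA livers, measured 404, 429 and 368 in the control libraries and 1032, 1373 and 1215 in the TAA libraries (log2 fold change 1.59 ± 0.14 (SE), adjusted p = 8.1e-05). In each the lowest TAA library was above the highest control library, by far for the first pair. Of 18 tested 8 rose and 3 fell, Gstp1 (-1.35, adjusted p = 9.8e-05; 0.22 with quantile normalization), Gstt2 and Gstz1, and the summed level of the list was 2512, 2791 and 2453 in the control libraries and 2781, 3473 and 2955 in the TAA libraries. Targets of NRF2, the oxidant-sensing transcription factor, rose in 7 of 15. Slc7a11, which imports cystine for glutathione synthesis, measured 0.0189, 0.01404 and 0.01501 in the control libraries and 5.68, 16.3 and 10.8 in the TAA libraries (log2 fold change 6.45 ± 0.35 (SE), adjusted p = 1.2e-05). Nqo1, a quinone reductase, went from 4.86 ± 0.367 to 13.98 ± 3.46 (1.48, adjusted p = 0.00035), and Gclc, the rate-limiting enzyme of glutathione synthesis, from 68.8 ± 12.4 to 149 ± 30.8 (1.11, adjusted p = 0.0018), the last below 2-fold without control library 3 or TAA library 2 (0.96 in either case). Ephx1, an epoxide hydrolase in the same list, measured 256, 243 and 198 in the control libraries and 249, 227 and 236 in the TAA libraries.

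Targets of p53 rose in 13 of 24, with none lower. Cdkn1a, the cell cycle inhibitor p21, measured 0.8701, 1.04 and 0.969 in the control libraries and 27.2, 34.4 and 37.8 in the TAA libraries (log2 fold change 4.96 ± 0.15 (SE), adjusted p = 1.7e-06). Eda2r, a member of the TNF receptor family, measured 0.244, 0.266 and 0.115 in the control libraries and 8.65, 10.6 and 9.18 in the TAA libraries (log2 fold change 4.99 ± 0.23 (SE), adjusted p = 6.3e-06). Mdm2, which p53 induces as its own inhibitor, measured 10.3, 10.3 and 10.3 in the control libraries and 14.2, 17.6 and 17.6 in the TAA libraries. The groups of all 3 were separate, but Mdm2 stayed inside the 2-fold limit (0.66, adjusted p = 0.00156). Cdkn2b, another cell cycle inhibitor, rose from 0.108 ± 0.0188 to 0.728 ± 0.146, and Cdkn2a, a marker of senescence, was at 0.05001 ± 0.0433 and 0.199 ± 0.04598, a call lost without control library 3 (0.76) or TAA library 1 (0.91).

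All 37 listed mitosis genes were called higher, where 17.0% of all tested genes were. Among lists of more than 10 tested genes, only this one and the urinary proteins had all tested members called one way. The lists were chosen with earlier results of these data known, so this ranking is a description and not a test. Cdc20, which activates the anaphase-promoting complex, measured 0.157, 0.0369 and 0.107 in the control libraries and 7.44, 10.3 and 7.93 in the TAA libraries (log2 fold change 5.46 ± 0.26 (SE), adjusted p = 7.3e-06). Top2a, the topoisomerase of chromosome condensation, measured 0.373, 0.427 and 0.3997 in the control libraries and 10.7, 13.05 and 10.7 in the TAA libraries. Ccnb1, the mitotic cyclin, measured 0.0364, 0.0133 and 0.172 in the control libraries and 4.47, 5.21 and 3.63 in the TAA libraries. Every TAA library was above every control library in all 37, an ordering seen in 32.6% of all tested genes, and the summed level went from 8.700 ± 0.631 to 122.9 ± 21.2. The median was 3.44 (2.87 to 3.91 over the 4 scalings). In DNA replication 20 of 26 rose, with a median of 1.75 (1.28 to 2.36 over the 4 scalings). Uhrf1, which carries DNA methylation through replication, had 4.62, adjusted p = 5.2e-05, Ccnd1, the cyclin that opens the cycle, went from 4.65 ± 0.6602 to 69.9 ± 8.96, and Pcna, the sliding clamp, measured 16.8, 14.3 and 14.3 in the control libraries and 24.1, 27.8 and 22.97 in the TAA libraries and stayed inside the 2-fold limit (0.71).

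The promoters of the mitosis genes shared a short motif that the list was not chosen by. The cell cycle genes homology region (CHR), TTTGAA on either strand, was searched from 250 bases before to 50 bases after the RefSeq start of each gene (GRCm38.p6), and 30 of the 37 genes had such a window. It was found in 21 of the 30, or 70.0%, against 18.1% of all 27025 windows, and within 50 bases of the start in 19 of them, or 63.3%, against 4.92%. In DNA replication, with windows for 21 of 26 genes, 3 windows held it. CCAAT, searched the same way and separately from the CHR, was in 22 of the 30 mitosis windows and 14 of the 21 replication windows, against 37.9% of all. It was not particular to division genes, being in 15 of 24 plasma protein windows and 15 of 16 cholesterol synthesis windows (of 23 genes). Clotting and complement genes had it in 7 of 23 windows and lipoprotein genes in 5 of 13. A match describes letters and is not evidence of a bound site. The 4 lines that follow show the 250 bases before the start of the mitosis genes with the greatest rise whose upstream bases held the motif, on the strand of the gene, with each CHR match in capitals. All 4 genes lie on the minus strand: Cdc20 at chr4:118437344-118437593, Top2a at chr11:99024190-99024439, Ccnb2, a second mitotic cyclin, at chr9:70421555-70421804, and Mki67, the proliferation antigen Ki-67, at chr7:135716380-135716629.
Cdc20: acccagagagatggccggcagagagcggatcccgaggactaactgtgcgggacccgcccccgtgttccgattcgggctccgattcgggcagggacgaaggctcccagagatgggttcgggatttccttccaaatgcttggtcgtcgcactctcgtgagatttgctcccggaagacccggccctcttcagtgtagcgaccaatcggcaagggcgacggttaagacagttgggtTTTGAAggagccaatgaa
Top2a: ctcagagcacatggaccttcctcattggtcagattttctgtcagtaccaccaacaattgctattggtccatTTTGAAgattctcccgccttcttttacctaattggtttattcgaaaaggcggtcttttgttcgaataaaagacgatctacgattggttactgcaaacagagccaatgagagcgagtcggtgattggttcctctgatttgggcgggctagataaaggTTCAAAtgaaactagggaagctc
Ccnb2: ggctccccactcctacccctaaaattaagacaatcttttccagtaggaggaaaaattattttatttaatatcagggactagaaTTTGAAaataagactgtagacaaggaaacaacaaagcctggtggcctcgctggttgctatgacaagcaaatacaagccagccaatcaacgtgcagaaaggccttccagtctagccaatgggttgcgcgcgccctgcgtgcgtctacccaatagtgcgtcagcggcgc
Mki67: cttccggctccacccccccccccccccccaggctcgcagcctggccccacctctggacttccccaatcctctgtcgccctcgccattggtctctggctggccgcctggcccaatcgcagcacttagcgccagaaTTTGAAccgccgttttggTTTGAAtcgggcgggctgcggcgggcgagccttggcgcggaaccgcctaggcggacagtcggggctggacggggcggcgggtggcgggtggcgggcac
In Cdc20 and Top2a the match nearest the start began 18 and 23 bases before it, and in Ccnb2 and Mki67 the nearest upstream match began 167 and 98 bases before it. The 4 genes rose by 5.46, 4.53, 4.43 and 4.33 on the log2 scale.

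Genes of fetal liver and of bile ducts rose. Afp, the fetal serum protein, measured 0.629, 0.535 and 0.393 in the control libraries and 30.9, 52.02 and 38.1 in the TAA libraries (log2 fold change 6.01 ± 0.22 (SE), adjusted p = 3e-06). Gpc3, a cell surface proteoglycan of fetal liver and liver tumours, measured 0.226, 0.342 and 0.259 in the control libraries and 8.76, 10.5 and 13.3 in the TAA libraries. In both, the control libraries were under 1 and the TAA libraries far above. Of 17 oncofetal genes listed, 15 were in the table and 13 tested, and 11 rose. Among 17 ductular genes, 16 tested, 15 rose, with a median of 2.89 (2.31 to 3.29 over the 4 scalings) and a summed level that went from 26.6 ± 3.78 to 402 ± 86.8. Spp1, osteopontin, gave most of that sum, with 16.4, 13.8 and 18.01 in the control libraries and 415, 284 and 274 in the TAA libraries (log2 fold change 4.31 ± 0.18 (SE), adjusted p = 4.2e-06). Epcam, an adhesion protein of biliary epithelium, went from 0.375 ± 0.125 to 8.57 ± 1.49, Krt19, a keratin of bile ducts, from 0.369 ± 0.0853 to 5.496 ± 2.096, and Cldn4 from 0.0211 ± 0.0195 to 7.39 ± 1.86; none of these overlapped. Jag1, the Notch ligand tied to bile duct formation, rose (1.29, adjusted p = 0.00072), as did Heyl, a Notch target (2.15, adjusted p = 5.4e-05), among 4 of 12 Notch genes.

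**Figure D4:**
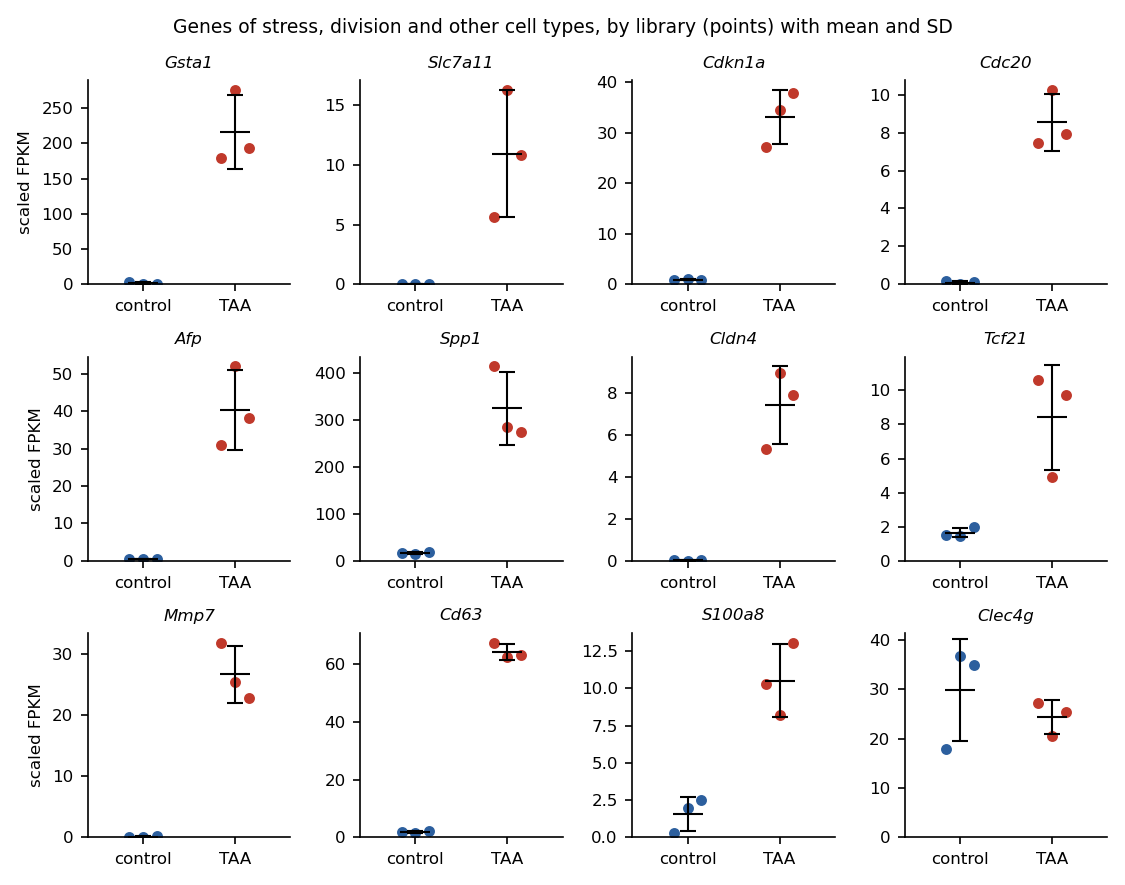
Scaled FPKM (linear axes from 0) of 12 genes of stress, division and other cell types in the 3 control (blue) and 3 TAA (red) libraries, with mean and SD in black. In 11 of the 12 the TAA libraries lie above every control library, and Clec4g, a sinusoidal endothelial marker, overlaps between the groups.

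Markers of activated stellate cells rose, and so did part of those of resting ones. Of 23 myofibroblast genes, 22 tested, 19 rose, with a median of 2.89 (2.56 to 3.50 over the 4 scalings). Acta2, the smooth muscle actin of activated stellate cells, measured 1.73, 1.04 and 0.615 in the control libraries and 4.44, 3.87 and 7.19 in the TAA libraries (log2 fold change 2.15 ± 0.36 (SE), adjusted p = 0.0019). Timp1, an inhibitor of matrix proteases, measured 0.0505, 0.0288 and 0.119 in the control libraries and 1.29, 1.74 and 2.08 in the TAA libraries. Fn1, fibronectin, which hepatocytes also secrete, measured 352, 339 and 404 in the control libraries and 263, 246 and 284 in the TAA libraries. The first pair rose without overlap, and Fn1 was lower in each TAA library but inside the 2-fold limit (-0.46, adjusted p = 0.00892). Of 16 markers of resting stellate cells 6 rose and 3 fell. Lrat, which stores retinol as its ester, measured 4.61, 5.39 and 6.098 in the control libraries and 18.2, 10.3 and 18.2 in the TAA libraries (log2 fold change 1.48 ± 0.23 (SE), adjusted p = 0.00129), and Tcf21, a transcription factor of these cells, 1.52, 1.47 and 1.96 in the control libraries and 10.6, 4.91 and 9.700 in the TAA libraries (log2 fold change 2.21 ± 0.29 (SE), adjusted p = 0.00052). Angptl6, Colec10 and Ecm1 fell (-1.65, -1.14 and -1.03), of which Colec10 and Ecm1 dropped below 2-fold without control library 3 (-0.89 and -0.74), and Ecm1 also without TAA library 1 or 2.

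Fibrogenic ligands rose, not all of them past the 2-fold limit. Tgfb3 measured 0.361, 0.357 and 0.354 in the control libraries and 4.66, 2.14 and 3.43 in the TAA libraries (log2 fold change 2.87 ± 0.27 (SE), adjusted p = 0.00011). Tgfb2 measured 0.4404, 0.131 and 0.234 in the control libraries and 2.04, 1.62 and 1.56 in the TAA libraries (log2 fold change 2.39 ± 0.31 (SE), adjusted p = 0.00054). Tgfb1, the best known of the 3 TGF-beta ligands, measured 3.52, 3.72 and 3.82 in the control libraries and 6.97, 5.78 and 7.22 in the TAA libraries. All were separate between the groups, and Tgfb1 stayed just inside the 2-fold limit (0.83, adjusted p = 0.00088), which it passed with FPKM as deposited (1.46) and upper quartile scaling (1.02). In the list of TGF-beta and PDGF genes 8 of 14 were called higher and none lower, or 13 higher with FPKM as deposited. By the reported scaling 12 were higher in every TAA library, an ordering seen in 32.6% of all tested genes. Mmp7, matrilysin, was the steepest of the matrix proteases, with 0.0233, 0.0427 and 0.254 in the control libraries and 31.9, 25.4 and 22.8 in the TAA libraries (log2 fold change 7.17 ± 0.38 (SE), adjusted p = 1.1e-05), and Mmp12, the macrophage elastase, went from 0.204 ± 0.221 to 4.13 ± 0.533; 11 of 27 listed metalloproteinases and TIMPs rose, 19 of them tested.

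Markers of sinusoidal endothelium were not called, and those of other endothelium and resident macrophages in part, with 2 of 11 tested vascular genes and 2 of 7 Kupffer cell genes called, against 25.0% of all tested genes. Stab2, a scavenger receptor of sinusoidal endothelium, measured 9.46, 12.6 and 12.7 in the control libraries and 10.6, 8.999 and 9.71 in the TAA libraries, and none of 17 sinusoidal markers was called by limma, with 5 at an unadjusted p under 0.05 (median -0.23, or 0.40 with FPKM as deposited). Cd34, which marks endothelium of larger vessels and capillarized sinusoids, rose from 0.597 ± 0.102 to 8.37 ± 1.78 (3.59, adjusted p = 1.2e-05), as did Vcam1, an adhesion molecule for leukocytes (1.79, adjusted p = 0.00095). Clec4f, the marker of Kupffer cells, measured 13.8, 32.3 and 36.2 in the control libraries and 21.4, 23.9 and 20.2 in the TAA libraries. Cd5l, also of Kupffer cells, measured 13.6, 50.5 and 51.2 in the control libraries and 41.6, 41.9 and 37.9 in the TAA libraries. Control library 1 was the lowest library for both, and the Kupffer markers summed to 40.9, 118 and 123.5 in the 3 control libraries. Marco rose (2.04, adjusted p = 0.00722), and Cd163 was called lower (-1.34, adjusted p = 0.028), a call lost without control library 2 (-1.11), control library 3 (-1.05), TAA library 1 (-1.21) or TAA library 3 (-1.30).

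Markers of recruited macrophages rose in 11 of 17, with a summed level that went from 110.4 ± 22.2 to 357 ± 45.5. Cd63, a lysosomal membrane protein that other cells also carry, measured 1.95, 1.52 and 2.27 in the control libraries and 67.4, 62.3 and 62.9 in the TAA libraries (log2 fold change 5.01 ± 0.14 (SE), adjusted p = 1.7e-06). Gpnmb, a glycoprotein of lipid-laden macrophages, measured 22.2, 0.188 and 0.102 in the control libraries and 8.17, 5.12 and 10.9 in the TAA libraries. Trem2, a lipid receptor of the same cells, measured 7.097, 0.302 and 0.389 in the control libraries and 5.13, 5.12 and 7.69 in the TAA libraries. Here too control library 1 stood apart, far above its fellows in both genes; neither was called (2.84, adjusted p = 0.17, and 2.41, adjusted p = 0.076), and both were without that library (5.02 and 3.75). All 7 tested neutrophil markers, of 11 listed, rose, where 17.0% of all tested genes were called higher. The other 4 fell below the filter, which low markers could pass through the TAA group, so the 7 are a description and not a test. S100a8, a subunit of calprotectin, rose from 1.59 ± 1.14 to 10.5 ± 2.45 (2.999, adjusted p = 0.00548). Ly6g, the defining surface marker, was listed at 0 in the control libraries and at 0.0204, 0.104 and 0.0422 in the TAA libraries and was too low to test.

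**Figure D5:**
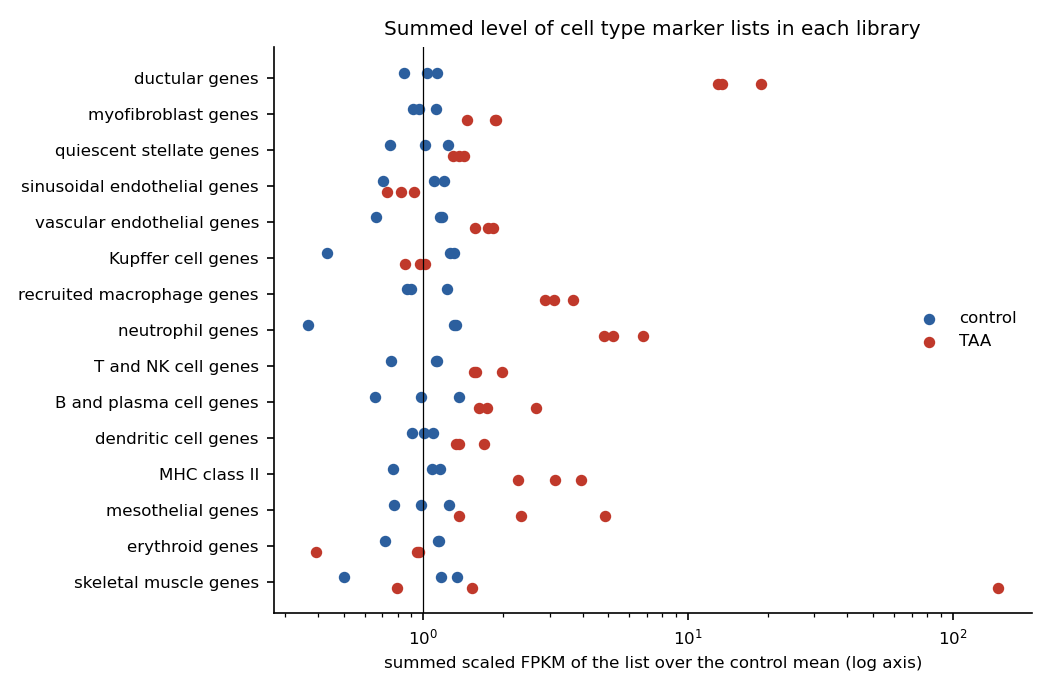
Summed scaled FPKM of 15 cell type marker lists in each library, divided by the mean of the 3 control libraries (log axis), for control (blue) and TAA (red) libraries. Ductular markers lie over 10 times above the control mean in all 3 TAA libraries, sinusoidal and Kupffer markers overlap between groups, and the muscle markers are raised over 100 times in TAA library 3 alone.

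Genes of antigen presentation rose, and lymphocyte markers were called higher at about the rate of all genes. H2-Aa, a chain of MHC class II, measured 10.7, 15.2 and 16.9 in the control libraries and 67.7, 41.4 and 49.9 in the TAA libraries (log2 fold change 1.88 ± 0.22 (SE), adjusted p = 0.00033), and 8 of 10 class II genes rose, with a median of 1.39 (1.01 to 2.02 over the 4 scalings). Cd3e, the T cell receptor subunit, measured 0.518, 0.667 and 0.803 in the control libraries and 1.02, 0.957 and 0.758 in the TAA libraries, with overlapping groups. Of 22 T and NK cell genes listed, 17 tested, 3 rose, all low, such as Ccl5 from 0.567 ± 0.0555 to 1.98 ± 0.658, and of 10 B and plasma cell genes, 7 tested, only Jchain, the joining chain of secreted antibodies, rose (1.33, adjusted p = 0.0071), where 17.0% of all tested genes were called higher. With FPKM as deposited 7 T and NK cell genes were called higher, and with quantile normalization 0 were higher and 2 lower. Dendritic cell markers rose in 5 of 10 listed, 9 of them tested. Flt3, a growth factor receptor of their precursors, went from 0.0706 ± 0.00266 to 0.692 ± 0.139. Of 25 interferon-stimulated genes 9 rose and none fell, with a median of 0.73 (0.41 to 1.34 over the 4 scalings). Cxcl10, a T cell chemokine, rose (2.25, adjusted p = 0.0001), and Ifit1 measured 2.97, 2.78 and 3.46 in the control libraries and 1.82, 2.22 and 2.25 in the TAA libraries without a call. Among 36 chemokines, 25 of them tested, 10 rose, led by Cx3cl1 (3.23, adjusted p = 4.1e-05) and Ccl2, the monocyte attractant (2.92, adjusted p = 4.9e-05). Cxcl12, a homing signal for blood cell precursors, fell from 112 ± 7.98 to 39.9 ± 9.11 (-1.51, adjusted p = 0.00024). S100a11 and Anxa2, calcium-binding proteins of epithelium and mesenchyme, rose from 0.878 ± 0.0953 to 18.8 ± 1.35 and from 4.18 ± 1.74 to 73.6 ± 15.4 (4.27, adjusted p = 1.7e-06, and 4.16, adjusted p = 2.6e-05).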

How the data were processed

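Liver RNA of 9 C57BL/6 mice, 3 per group, was sequenced as mRNA libraries, and the 6 control and TAA libraries are compared here. The authors deposited 1 table of FPKM per gene, normalized for gene length and library size; the submitters' processing notes name HISAT2 2.2.1, featureCounts 1.5.0-p3 and the mouse build mm10 (GRCm38). No counts were used, so strand and multiple mapping are not known, and overlapping genes or near-identical copies may share reads. Symbols that had become dates (27) were restored by gene ID.

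FPKM were scaled by median ratios over the 14005 genes above 0 in all 9 libraries, filtered at a mean FPKM of 0.1, transformed as log2(scaled FPKM + 0.1) and tested with limma 3.58.1 (R 4.3.3; trend and moderated variance, 6 libraries, no covariate), two-sided, with Benjamini-Hochberg adjustment over 14094 genes. All adjusted p in the text are limma's. A call needed an adjusted p under 0.05 together with a 2-fold difference or more. The groups did not overlap in 63.6% of tested genes, in either direction. The script was tested on simulated data. Tables and drawings used Python 3.11.15, pandas 2.3.3, numpy 2.4.6 and matplotlib 3.10.9.

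Gene lists were written from textbook knowledge, and the members and lists were chosen with earlier results of these data known. List medians cover all members in the table, tested or not. Named genes were the 15 largest rises and falls among called genes with a mean of at least 1 in the higher group and no overlap, the 10 highest genes of each group, and in each list its leading genes, its 2 largest rises, 2 largest falls and 2 highest members and any called against its direction; Axin2, Lect2, Cyp1a2, Ccnb2, Mki67, Gsta2, Igf1r, Rdh16f1 and the Y-linked genes were chosen after their values were seen. The alternatives covered scaling, pseudocount, filter, variance trend, treat, all 9 libraries, a replicate block and leaving out each library. Genes outside the table were not analysed here, and values of some genes that the rule names are not reported here.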

Additional observations from a re-analysis of the deposited data

How the results depend on the processing

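Counts of genes called higher and lower, 2389 and 1131 by the reported settings, depended most on the scaling and the floor. With FPKM as deposited they were 4382 and 421, with quantile normalization 1591 and 1266, with a pseudocount of 1 they were 890 and 890, with a mean FPKM of at least 1 they were 1176 and 1028, and with the stricter treat test in limma, where the null is a 2-fold difference, 941 and 500 passed. Quantile normalization gives every library the same set of values by construction, so it raised the most abundant genes of the TAA libraries, and it turned the log2 fold change of Apob to 0.12, Atp5b to 1.01, Cyp2f2 to 1.03, Cyp3a11 to 1.11, Ftl1 to 1.03, Gc to 1.27, Gstp1 to 0.22, Hp to 0.32, Hpx to 1.21, Trf to 1.24 and Ttr to 1.29. Leaving out 1 library at a time gave 2252 to 2414 genes higher and 1137 to 1205 lower. Of the 232 reported genes that were called, 136 were called under every one of the 18 alternatives that tested them; FPKM as deposited lost 41, quantile normalization 51 besides the genes it turned, a pseudocount of 1 lost 24 and the stricter treat test 74, all with their direction kept.

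Libraries with the same replicate number did not deviate together (correlations of -0.07, -0.01 and 0.02 between the deviations of control and TAA libraries 1, 2 and 3). Libraries with different numbers gave -0.085 to 0.079. With 3 libraries on each side these values cannot decide whether the numbers pair the samples. With a replicate block 2383 genes were higher and 1134 lower, 3485 of them among the 3520 calls reported. Depth limits the low genes: 1 fragment moves a level near the floor of 0.1 visibly, the whole-fragment depth is an estimate, and genes under a mean FPKM of 0.1 were not tested.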

Other observations

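Clock genes and stress responses were called in a few members each, where 17.0% of all tested genes were called higher and 8.02% lower. Among the 19 clock genes 13 were lower in every TAA library and 3 higher, against 31.0% and 32.6% of all tested genes. The median of the clock list was -0.60, or 0.03 with FPKM as deposited. Of 19 clock genes 2 rose, Arntl, the activator BMAL1 (0.424, 0.971 and 0.635 in the control libraries and 1.54, 1.79 and 1.85 in the TAA libraries; log2 fold change 1.29 ± 0.26 (SE), adjusted p = 0.00463), and Npas2, and 4 fell, among them the output factors Hlf (-1.33, adjusted p = 0.00069) and Tef (-1.03, adjusted p = 0.00024), though none was called lower with FPKM as deposited; the control and TAA mice were killed on the same schedule, but the hour is not given in the sources used here. In the unfolded protein response 1 of 11 genes was called, Herpud1, which helps clear misfolded proteins and fell (-1.29, adjusted p = 6.7e-05), where FPKM as deposited gave 3 higher and none lower, while Hspa5, the main chaperone, measured 75.4, 116 and 115 in the control libraries and 130.4, 120.3 and 131 in the TAA libraries. The targets of ATF4 split 4 against 4: Phgdh, the first enzyme of serine synthesis, rose from 0.0675 ± 0.0298 to 1.53 ± 0.106, and Asns, asparagine synthetase, fell from 11.03 ± 5.41 to 1.704 ± 0.568. Hepcidin rose, with Hamp at 428, 368 and 503 in the control libraries and 934, 971 and 884 in the TAA libraries (log2 fold change 1.11 ± 0.14 (SE), adjusted p = 0.00041), and Id1, a target of BMP signalling, rose with it (1.54, adjusted p = 8e-05), while Tfr2 and Tmprss6, which raise and restrain hepcidin, both fell (-1.46 and -1.03), neither with FPKM as deposited. In the Hedgehog list Ihh, a ligand, rose (1.75, adjusted p = 0.00238), Hhip, a decoy receptor, fell from 1.71 ± 0.541 to 0.125 ± 0.0699 (-3.002, adjusted p = 0.00019), and Gli1, the usual readout of the pathway, was listed at 0.0626, 0.0403 and 0.0561 in the TAA libraries and was too low to test.

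Fat, blood and mesothelium were each represented in the libraries to a different extent. Cfd, the adipocyte protease adipsin, was listed at 8.41, 0.969 and 0.529 in the control libraries and at 0 in all 3 TAA libraries, with Adipoq, the defining adipocyte marker, at or under 0.07 in every library. Alas2, an erythroid haem enzyme, fell from 43.6 ± 10.1 to 10.2 ± 3.55, while the beta-globin Hbb-bs measured 204, 352 and 352 in the control libraries and 292, 116 and 281 in the TAA libraries. Wt1, a mesothelial and stellate cell factor, rose (1.81, adjusted p = 0.0034), and the mesothelial marker Upk3b was highest in TAA library 3 (0.389, 0.1802 and 1.34). Rdh16f1 was listed at 3.28, 0 and 0 in the TAA libraries and at 0 in all controls, the signal of 1 library.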
